A study of Mus musculus with 12 samples.

Results

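Genes of the cornified envelope and epidermal barrier were followed in thymic epithelial cells (TECs), which present antigens to developing T cells. The set holds every gene whose symbol begins with Sprr or with Lce and a digit (16 small proline-rich and 20 late cornified envelope genes), together with 18 other genes: Ivl, Lor, Cnfn, Flg, Flg2, Hrnr, Rptn, Crnn, Tgm1, Tgm3, Casp14, Asprv1, Spink5, Cdsn, Dsg1a, Dsc1, Sbsn and Krtdap. That makes 54 of the 25867 genes with a symbol in the count table. RNA was sequenced from TECs sorted out of fetal thymic organ cultures of C57BL/6 mice, in 4 groups of 3 biological replicates. All 4 groups shared the culture: lobes of embryonic day 15.5, thymocyte depletion over 4 to 5 days in 1.35 mM 2'-deoxyguanosine, and then 3 days of an agonist antibody to RANK at 10 µg/mL to bring on AIRE, the regulator that opens genes of other tissues in medullary TECs. Control cultures (genotype given as control) and knockout cultures (RosaCre-ERT2 Kat7fl/fl) both received tamoxifen, which activates this Cre recombinase. The Cre is driven from the broadly active Rosa locus, so the deletion is not limited to TECs. Wild-type cultures received either the solvent DMSO or WM-3835, an inhibitor of the histone acetyltransferase KAT7. Sample titles spell this compound WM-3825 where the treatment label has WM-3835. The labels do not say what the control genotype was, and they give no dose or time for the inhibitor.

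The cornified envelope is the protein shell that replaces the plasma membrane of dying keratinocytes at the skin surface. Small proline-rich (SPRR) proteins, late cornified envelope (LCE) proteins, involucrin and loricrin are its building blocks, transglutaminases link them covalently, and filaggrin and its relatives bundle keratin filaments beneath it. Most of these genes lie side by side in one cluster, the epidermal differentiation complex. In the thymus, medullary TECs that have passed the AIRE stage can take on a keratinocyte-like programme and cornify, which forms Hassall's corpuscles.

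In these files the complex held 43 of the 54 genes, between positions 92080271 and 93399442 of chromosome 3 (RefSeq, GRCm38.p6, the assembly also called mm10). The 250 bases before a RefSeq start of 4 genes are printed here. All 4 were called lower in the knockout, and these stretches differ in the motifs they hold. Capitals mark the motif TGANTCA, the binding sequence of AP-1 (FOS and JUN) factors, and the TATA box TATAAA, both searched on both strands. Sprr1a lies on the minus strand at chr3:92485882-92486131, Ivl on the minus strand at chr3:92573736-92573985, Sprr2b on the plus strand at chr3:92316455-92316704 and Sprr2a3 on the plus strand at chr3:92285054-92285303.
Sprr1a: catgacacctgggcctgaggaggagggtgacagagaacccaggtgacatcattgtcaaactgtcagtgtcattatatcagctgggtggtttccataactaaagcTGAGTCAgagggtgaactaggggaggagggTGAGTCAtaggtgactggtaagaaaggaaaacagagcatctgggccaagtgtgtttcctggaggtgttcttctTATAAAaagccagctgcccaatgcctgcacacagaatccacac
Ivl: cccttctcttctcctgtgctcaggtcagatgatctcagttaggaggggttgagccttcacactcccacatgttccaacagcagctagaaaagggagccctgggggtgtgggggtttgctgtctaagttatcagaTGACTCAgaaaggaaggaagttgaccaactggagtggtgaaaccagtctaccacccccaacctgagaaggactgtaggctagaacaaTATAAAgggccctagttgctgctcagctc
Sprr2b: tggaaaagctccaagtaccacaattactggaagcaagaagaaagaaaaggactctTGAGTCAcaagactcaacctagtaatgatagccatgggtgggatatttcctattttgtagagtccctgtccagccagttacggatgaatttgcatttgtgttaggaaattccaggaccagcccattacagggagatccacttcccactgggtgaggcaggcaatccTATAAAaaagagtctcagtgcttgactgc
Sprr2a3: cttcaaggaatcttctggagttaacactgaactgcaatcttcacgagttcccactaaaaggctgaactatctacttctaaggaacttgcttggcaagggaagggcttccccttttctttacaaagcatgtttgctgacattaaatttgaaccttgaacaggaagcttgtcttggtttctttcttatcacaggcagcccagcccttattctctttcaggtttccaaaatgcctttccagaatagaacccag
Sprr1a held 2 copies of TGANTCA and a TATAAA that began 43 bases before the start. Ivl held TGANTCA at 116 bases and TATAAA at 29 bases before its start. Sprr2b held them at 195 and 29 bases.

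Counted over 300 bases, 250 before to 50 after the start, 48 of the 54 genes had a RefSeq window. TGANTCA was found for 17 of these genes, against 7.81% of all 32851 windows of that length in the genome's table. TATAAA was found for 22 of them, against 13.6% of all windows. The Sprr2 genes were built alike: 7 of the 10 with a window had TATAAA 29 bases and TGANTCA 193 to 198 bases before the start. The 3 Sprr2a copies had neither motif in their windows. The windows of Sprr2a1 and Sprr2a2 were identical over all 300 bases, and that of Sprr2a3 shared a run of 272 bases with them, shifted by 28. RefSeq places the start of Sprr2a3 113 bases upstream of the start in GENCODE M21, and that of Sprr2b 85 bases downstream of it. The printed stretch of Ivl overlaps its RefSeq gene span, which ends at 92573790. These windows, and the motif positions in them, therefore depend on which start is used. A motif match here describes letters and is not a measured binding site.

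Copies with near-identical transcripts limit what a count can say. Of all 75-base stretches of the Sprr2a1 transcripts, 94.3% also occurred in another gene, almost all in Sprr2a2 or Sprr2a3, and for Sprr2a2 it was 94.7%. For Sprr2a3 the share was 47.5%. How reads that match several genes were counted is not given in the sources used here, so the 3 values are uncertain singly and are also given as a sum. Sprr1a, Sprr1b, Sprr2f, Sprr2g and Sprr2h shared no 75-base stretch, as was true of 26 of the 54 genes. Dsg1a shared 29.2% with Dsg1b and Dsg1c.

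Outside the complex, Cnfn, Sbsn and Krtdap lie on chromosome 7, Dsc1, Dsg1a and Spink5 on chromosome 18, and Tgm3, Asprv1, Casp14, Tgm1 and Cdsn singly on chromosomes 2, 6, 10, 14 and 17. Libraries held 26656847 to 52368012 counts. Kat7 checked the labels: the controls had 76.0 to 89.0 CPM (counts scaled to library size, with TMM factors), the knockout libraries 0.606 to 0.869, and the wild-type groups 84.6 to 100.4. Xist, the RNA of the inactive X chromosome, stood at 2.34 to 3.17 CPM in the controls and at 4.94 CPM in knockout 3, against 1191 and 1709 CPM in knockout 2 and 1 and 846 to 2118 CPM in the wild-type groups. All 10 TEC markers were detected in every group, at a summed 12070 to 15750 CPM, but single ones moved. Aire had 596 to 668.5 CPM in the controls, 490 to 577 in the knockout, 1123 to 1260 with DMSO and 510 to 586 with WM-3835. Its log2 changes were -0.24 in the knockout (adjusted p = 0.0458), -1.11 with WM-3835 (adjusted p = 3.36e-08) and 0.92 for DMSO against control (adjusted p = 8.75e-08). In the knockout Krt14, a basal keratin, fell by 1.34 (adjusted p = 0.000267) and the cortical TEC gene Ly75 rose by 0.75 (adjusted p = 0.000119). Cd74 fell there by 0.23 (adjusted p = 0.0366). With WM-3835 Ly75 fell by 0.59 (adjusted p = 0.000459) and the cortical TEC gene Psmb11 by 1.26 (adjusted p = 0.000952). Foxn1 fell by 0.42 (adjusted p = 0.00422) and Krt5 by 0.23 (adjusted p = 0.0397), while Epcam rose by 0.51 (adjusted p = 1.08e-05). For DMSO against control the changes were -1.34 for Krt14 (adjusted p = 7.39e-05) and 0.80 for Ly75 (adjusted p = 1.40e-05). Krt5 changed by -0.73 (adjusted p = 1.15e-06) and Epcam by -0.36 (adjusted p = 0.00026). Foxn1 changed by 0.33 (adjusted p = 0.0170) and Cd74 by 0.22 (adjusted p = 0.0297). Markers of other cells were low but not level. The 8 fibroblast markers summed to 127 to 197 CPM in the controls, 62.5 to 85.4 in the knockout, 58.0 to 75.6 with DMSO and 51.9 to 65.6 with WM-3835, with none at 0. With WM-3835 Pdgfra went against this sum. It stood at 1.06 ± 0.246 CPM with DMSO and 18.5 ± 3.765 with WM-3835, against 6.10 ± 3.956 in the controls. Its rise with WM-3835 was 4.11 (adjusted p = 2.66e-06), while 3 of the 8 were called lower. The 10 myeloid markers summed to 61.1 to 123 CPM in the controls, 56.6 to 72.2 in the knockout, 48.6 to 69.4 with DMSO and 54.3 to 58.1 with WM-3835. The 6 endothelial markers summed to 8.91 to 20.9 CPM in the controls, 6.20 to 10.6 in the knockout (Emcn and Tie1 at 0), 2.56 to 4.19 with DMSO and 1.61 to 3.12 with WM-3835 (Emcn at 0). The 9 thymocyte markers summed to 17.1 to 24.1 CPM in the controls (Cd2 at 0), 16.6 to 26.8 in the knockout and 13.5 to 17.6 with WM-3835 (Cd8a and Cd2 at 0 in both), and 13.1 to 14.2 with DMSO. The 6 melanocyte markers summed to 4.40 to 7.97 CPM in the controls (Tyr at 0), 2.94 to 4.05 in the knockout (Dct, Tyr and Tyrp1 at 0), 4.22 to 5.09 with DMSO and 3.47 to 5.35 with WM-3835 (Tyr and Tyrp1 at 0).

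These genes were detected as a group in every library, and 4 of them gave a large share of the level. Summed over the 54 genes it ran from 605 to 731 CPM in the controls, 435 to 486 in the knockout, 392 to 469 with DMSO and 466 to 577 with WM-3835. Sprr1a and the 3 Sprr2a copies gave 58.6% ± 2.91 of that sum in the controls, 46.2% ± 2.48 in the knockout, 68.8% ± 5.38 with DMSO and 76.6% ± 2.48 with WM-3835 (mean ± SD, n = 3 libraries each). The other 50 genes together held 271 ± 8.06 CPM in the controls and 253 ± 26.1 in the knockout, but 135 ± 10.3 with DMSO and 122 ± 10.2 with WM-3835. Per kilobase of the deposited gene length, the highest mean levels over the 12 libraries were those of Sprr2a3 (134 CPM per kb), Sprr1a (133.7), Sprr2a2 (31.1), Krtdap (21.6), Sbsn (13.7) and Asprv1 (12.6). Sprr2a1 and Sprr2a2 are listed at 3547 bases and Sprr2a3 at 704 bases, which enters this order. In bulk RNA, fewer cornifying cells and less RNA per cell cannot be told apart.

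**Figure D1:**
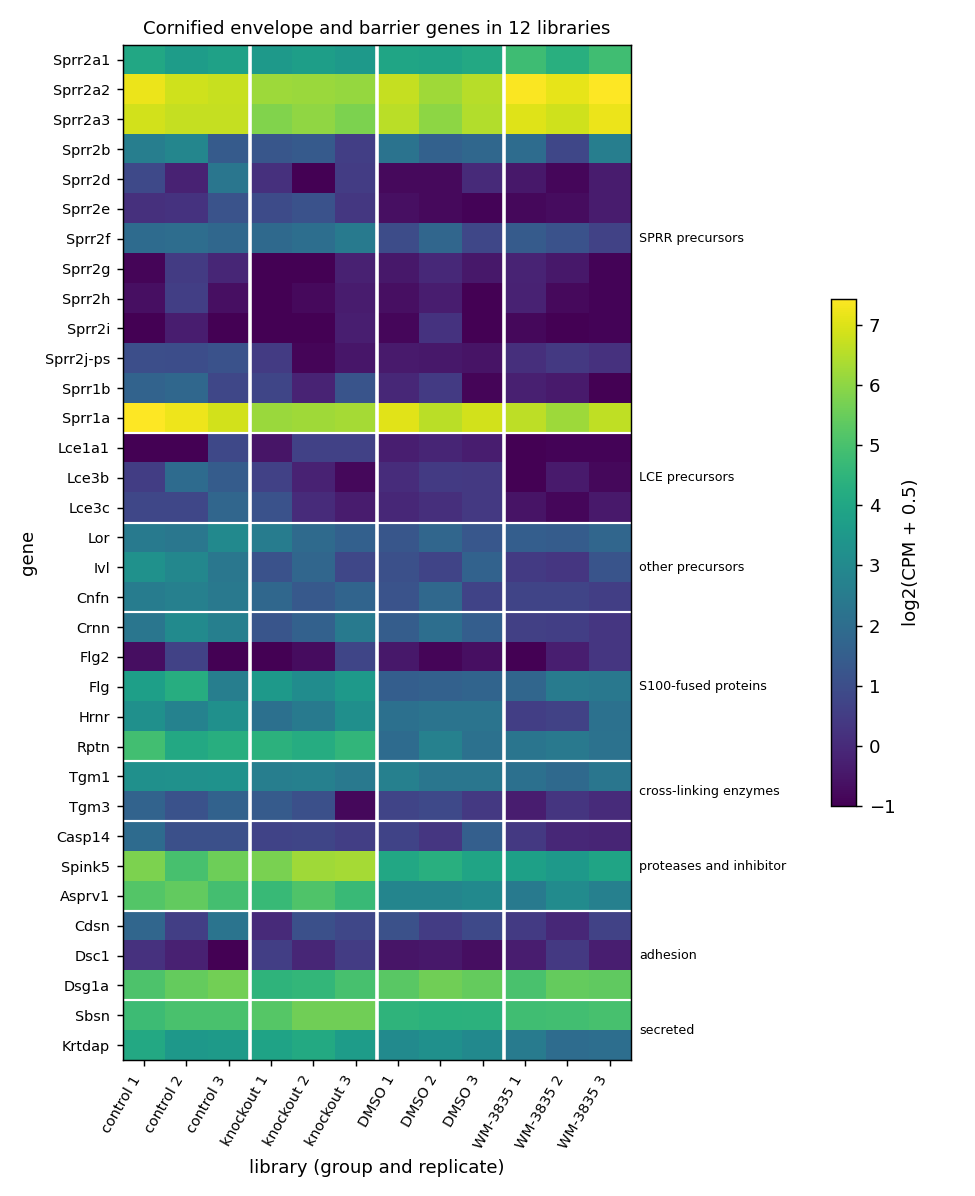
Each row is one of the 34 genes that passed the filter on low counts, grouped by role, each column one library, and the colour gives log2(CPM + 0.5). Sprr1a, Sprr2a2 and Sprr2a3 are bright in all 12 libraries, while Rptn, Asprv1 and Spink5 are darker in the 6 wild-type libraries than in the 6 tamoxifen libraries.

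The filter kept 34 of the 54 genes: 13 of 16 SPRR genes, 3 of 20 LCE genes and all 18 others. The 20 that were not tested were Sprr2k, Sprr3, Sprr4, Lce1a2, Lce1b, Lce1c, Lce1d, Lce1e, Lce1f, Lce1g, Lce1h, Lce1i, Lce1k, Lce1l, Lce1m, Lce3a, Lce3d, Lce3e, Lce3f and Lce6a. They had between 4 and 90 counts in all 12 libraries together and never exceeded 1.34 CPM. Differences were tested with edgeR's quasi-likelihood test over all 18670 genes that passed the filter, and a gene is called where its Benjamini-Hochberg adjusted p is under 0.05. Whether the p-values cover more than the spread between these cultures depends on how separate the replicates were, which the labels give only as biological replicates.

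The knockout comparison asks which of these genes change in TECs from cultures that lost Kat7, in TECs and in other cells. In the knockout, the envelope precursors Sprr1a, Sprr2a2, Sprr2a3, Sprr2b and Ivl fell, as did the cross-linking enzyme gene Tgm1 and the desmosomal cadherin gene Dsg1a. The falls ran from 0.70 to 1.81 on the log2 scale. The protease inhibitor gene Spink5 and the secreted protein gene Sbsn rose, by 0.64 and 0.55. So 9 of 34 tested genes were called, where 14.2% of all tested genes were. Of these, 7 were lower, where 8.06% of all genes were, and 2 were higher, where 6.12% were. All 3 knockout libraries lay below all controls for 10 of the 34, as for 13.5% of all genes, and above them for 1, as for 12.2%. The share of higher genes lies near that of all genes and says nothing about the set. The fibroblast and melanocyte marker sums were also lower in every knockout library than in any control. The thymocyte, myeloid and endothelial ranges overlapped, and Krt14, Ly75, Aire and Cd74 changed. Xist was higher in knockout 1 and 2. Their part in these changes was not tested.

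Sprr1a, an SPRR precursor that is also induced in stressed epithelia (Entrez 20753, chr3:92483954-92485881), stood at 172.5, 147 and 116 CPM in the controls and at 70.8, 74.6 and 78.6 CPM in the knockout. Every knockout library lay below every control. The log2 change was -0.96 (SE 0.14, adjusted p = 0.000192). With DMSO it stood at 132, 93.2 and 117 CPM and with WM-3835 at 95.3, 72.7 and 98.0 CPM. These groups overlapped, and the log2 change of -0.36 (SE 0.14) was not called (adjusted p = 0.0802). It was called in several other fits: -0.41 with upper-quartile scaling (adjusted p = 0.0394), -0.38 with DESeq2 (0.0431), -0.39 with quality weights per group (0.00625), -0.39 with no filter (0.0211), -0.37 on the 6 libraries alone (0.0303) and -0.49 without DMSO 2 (0.0291). Its fall in the knockout was called in every alternative run.

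Sprr2a2 and Sprr2a3 fell in the knockout and rose with WM-3835, while Sprr2a1 was called with WM-3835 and not in the knockout. Summed over the 3 copies, the controls held 242 ± 31.2 CPM, the knockout 141 ± 7.95, DMSO 187 ± 30.4 and WM-3835 315 ± 38.0 (n = 3 each). As 1 feature, a choice made after the shared stretches were seen, the trio fell by 0.78 in the knockout (SE 0.12, adjusted p = 0.000227) and rose by 0.75 with WM-3835 (SE 0.11, adjusted p = 0.000128). Every library of each treated group lay outside the range of its own baseline for Sprr2a2 and Sprr2a3.

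Copy by copy, Sprr2a2 (Entrez 100303744, chr3:92250647-92257304) had 147, 112 and 105 CPM in the controls and 73.5, 72.1 and 68.0 in the knockout. It had 103, 75.3 and 91.8 CPM with DMSO and 167, 139 and 171 with WM-3835. The log2 changes were -0.76 (SE 0.12, adjusted p = 0.000508) and 0.82 (SE 0.12, adjusted p = 0.000111). Sprr2a3 (Entrez 100042514, chr3:92285304-92289264) changed in the same directions. Its lower share of shared stretches is over GENCODE M21 transcripts, while its deposited length is 704 bases. How much of the counted sequence is its own is therefore not known. Sprr2a3 had 115, 102.5 and 103 CPM in the controls, 56.3, 64.6 and 54.4 in the knockout, 92.9, 63.0 and 88.7 with DMSO and 131, 114 and 146.5 with WM-3835. Its log2 changes were -0.87 (SE 0.13, adjusted p = 0.000164) and 0.67 (SE 0.12, adjusted p = 0.000715). Sprr2a1 (Entrez 20755) rose with WM-3835, from 15.3 ± 1.07 to 25.1 ± 4.85 CPM (log2 0.71, SE 0.16, adjusted p = 0.00466). In the knockout it was at 11.7 ± 0.843 against 14.1 ± 2.06 CPM, a change of -0.27 (SE 0.17) that was not called (adjusted p = 0.325). The calls of Sprr2a2 and Sprr2a3 held in every alternative in both comparisons.

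The change in the knockout differed from that with the inhibitor for all 3 copies, by a test of the difference itself. The knockout effect minus the inhibitor effect was -1.58 for Sprr2a2 (SE 0.18, adjusted p = 1.35e-05) and -0.98 for Sprr2a1 (SE 0.23, adjusted p = 0.0106). For Sprr2a3 it was -1.545 (SE 0.18, adjusted p = 1.86e-05), and for the trio as 1 feature -1.525 (SE 0.16, adjusted p = 1.10e-05). Of the 34 genes, 5 were called in this test, where 10.1% of all genes were. The 3 with a lower effect in the knockout, where 5.69% of all genes had one, are these copies, which share their sequence. With an Xist covariate the call of Sprr2a1 was lost (-1.13, adjusted p = 0.0524). Sprr1a was not called in this test but was in 6 of the alternatives, with adjusted p of 0.0119 (without control 3) to 0.0392 (replicate block).

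The other Sprr2 genes had lower CPM than each Sprr2a copy and moved less clearly. Per kilobase, Sprr2b (4.74 CPM per kb over the 12 libraries) was level with Sprr2a1 (4.67). Sprr2b (Entrez 20756, chr3:92316705-92318085) had 5.56, 6.90 and 2.17 CPM in the controls and 1.90, 2.10 and 0.974 in the knockout. The groups did not overlap, though control 3 came close to the knockout libraries. The log2 change of -1.56 (SE 0.51) was just called (adjusted p = 0.0495), and the call was lost in most other fits. Adjusted p was 0.134 with limma-voom, 0.242 with quality weights, 0.0508 with the stricter filter, 0.101 on the 6 libraries alone and 0.119 with an Xist covariate. The fall and its SE were larger with an Xist covariate (-2.575, SE 0.84) and from knockout 3 on its own (-2.31, SE 0.83). Leaving out 1 library gave 0.0983 (control 1), 0.152 (control 2), 0.0948 (knockout 1), 0.0823 (knockout 2) and 0.16 (knockout 3). With WM-3835 it was at 3.46 ± 2.20 CPM against 3.25 ± 0.843 with DMSO (log2 0.08, adjusted p = 0.95).

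Sprr2d, Sprr2e, Sprr2f, Sprr2g, Sprr2h, Sprr2i, the pseudogene Sprr2j-ps and Sprr1b were not called in either main comparison. Sprr2f stood at 3.32 ± 0.266 CPM in the controls, 3.92 ± 0.873 in the knockout and 1.88 ± 0.94 with DMSO. Sprr2j-ps had 1.51, 1.47 and 1.70 CPM in the controls and 0.882, 0.0368 and 0.209 in the knockout, then 0.270, 0.224 and 0.187 with DMSO and 0.604, 0.808 and 0.659 with WM-3835. Its groups did not overlap in either comparison, and its signs were those of the Sprr2a copies. At these counts its changes of -2.02 (SE 0.94, adjusted p = 0.168) and 1.59 (SE 0.94, adjusted p = 0.283) were not called.

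**Figure D2:**
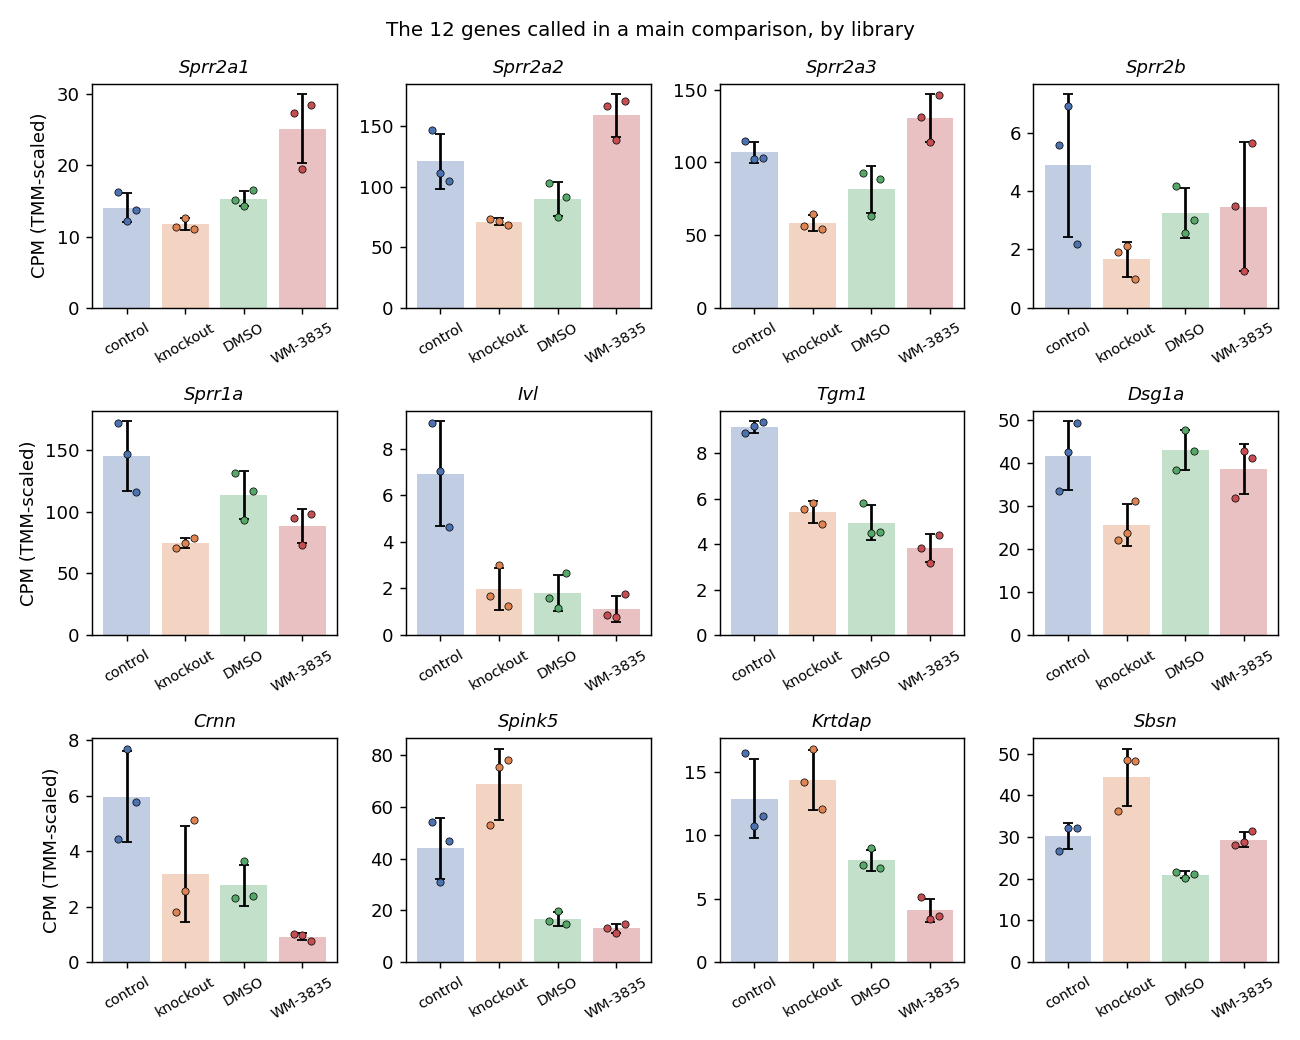
Points are the 3 libraries of each group, bars their mean and error bars the SD, in TMM-scaled CPM on axes that start at 0, for the 12 genes called in the knockout or the inhibitor comparison. Sprr2a2 and Sprr2a3 lie lower in the knockout than in the controls and higher with WM-3835 than with DMSO, Sprr2a1 overlaps between control and knockout, and for Spink5 both wild-type groups lie below both tamoxifen groups.

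Among the other precursors, involucrin is an early scaffold of the envelope, loricrin its main late component and cornifelin a minor one. Ivl (Entrez 16447, chr3:92570899-92573790) had 9.11, 7.02 and 4.62 CPM in the controls and 1.68, 2.98 and 1.25 in the knockout. The ranges did not overlap, and the log2 change was -1.81 (SE 0.46, adjusted p = 0.0131). The wild-type groups stood at 1.80 ± 0.766 CPM with DMSO and 1.12 ± 0.56 with WM-3835, a change that was not called (log2 -0.69, adjusted p = 0.351). The fall of Ivl narrowly missed the threshold when control 1 (-1.55, adjusted p = 0.0534), knockout 1 (-1.70, 0.0524) or knockout 3 (-1.56, 0.059) was left out, with an Xist covariate (-2.62, 0.0775) and where knockout 3 stood for the knockout on its own (-2.45, 0.0729). Lor was at 5.72 ± 1.54 CPM in the controls and 3.69 ± 1.42 in the knockout, and Cnfn at 5.31 ± 0.559 and 2.62 ± 0.503. The change of Cnfn, -1.01 (SE 0.39), was not called (adjusted p = 0.093), though its ranges did not overlap.

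Of the LCE genes, which form the outer, late part of the envelope, Lce1a1, Lce3b and Lce3c were tested and none was called by edgeR. In the knockout 0 had an unadjusted p under 0.05 and 0 were called by DESeq2 or limma-voom. With WM-3835 all 3 had such a p, DESeq2 called 1 of them lower (Lce3b) and limma-voom 0. All 3 were lower with WM-3835 than in any DMSO library, as were 23% of all tested genes. Lce3b had 0.559, 0.860 and 0.819 CPM with DMSO and 0, 0.261 and 0.0694 with WM-3835, and its change of -2.73 (SE 1.10) did not pass (adjusted p = 0.0968). Lce3c had 0.462, 0.598 and 0.819 CPM with DMSO and 0.179, 0.0522 and 0.243 with WM-3835 (adjusted p = 0.147). Summed over all 20 LCE genes, the level was 2.29, 3.22 and 3.51 CPM with DMSO and 0.918, 0.835 and 0.868 with WM-3835. The sums did not overlap, and within WM-3835 they were close to each other. The controls summed to 4.31, 6.85 and 9.41 CPM and the knockout to 4.74, 2.65 and 3.68, which do overlap. At a common depth of 26473241 counts, 14 to 14.7 LCE genes had a count in a DMSO library and 5.48 to 9.47 in a WM-3835 library, against 8.80 to 12.2 in a control and 6.97 to 10.98 in a knockout library. The LCE genes lie in tandem and resemble each other: Lce3c, Lce3d, Lce3e and Lce3f shared 28.0% to 45.6% of their 75-base stretches with another gene.

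The S100-fused proteins filaggrin, filaggrin 2, hornerin, repetin and cornulin are large repeat proteins of the outer epidermis and of squamous epithelia. In the knockout 0 of the 5 were called by edgeR, DESeq2 or limma-voom, and 1 (Crnn) had an unadjusted p under 0.05. Crnn (Entrez 381457, chr3:93144789-93149818) fell with WM-3835, from 2.31, 3.63 and 2.39 CPM to 1.01, 0.965 and 0.763, a log2 change of -1.59 (SE 0.42, adjusted p = 0.0108). The 3 WM-3835 libraries were tight and lay below all DMSO libraries. The call was lost with limma-voom (-1.47, adjusted p = 0.0918) and without DMSO 2 (-1.36, 0.0601). In the knockout Crnn had 1.82, 2.58 and 5.11 CPM against 4.45, 7.69 and 5.76 in the controls, and the change of -0.92 (adjusted p = 0.136) became a call without knockout 3 (-1.43, 0.0355). Hrnr was at 4.11 ± 0.258 CPM with DMSO and 1.99 ± 1.64 with WM-3835, a change of -1.07 (SE 0.43, adjusted p = 0.0976). Flg went the other way by sign, at 2.56 ± 0.218 and 4.29 ± 1.15 CPM, without a call (0.74, SE 0.34, adjusted p = 0.15). Rptn stood at 4.45 ± 1.43 and 4.40 ± 0.358 CPM, with a log2 difference of 0.00 (SE 0.24).

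Transglutaminase 1 joins the precursors into the envelope, and transglutaminase 3 acts later and in hair. Tgm1 (Entrez 21816, chr14:55700009-55713921) had 8.87, 9.19 and 9.38 CPM in the controls and 5.56, 5.82 and 4.87 in the knockout. The controls were tight and well apart from the knockout, and the log2 change was -0.76 (SE 0.23, adjusted p = 0.0363). That call was lost whenever any of the 6 libraries was left out, with changes of -0.67 to -0.80 and adjusted p of 0.0585 to 0.111. It was also lost with quality weights (adjusted p = 0.117), with no filter (0.0704), on the 6 libraries alone (0.108) and with an Xist covariate (0.168). The fall and its SE were larger with an Xist covariate (-0.97, SE 0.36) and from knockout 3 on its own (-0.90, SE 0.34). With WM-3835 Tgm1 was at 3.81 ± 0.613 CPM against 4.94 ± 0.76 with DMSO, a change of -0.38 (SE 0.23, adjusted p = 0.305). Tgm3 was at 2.37 ± 0.587 CPM in the controls and 1.28 ± 1.10 in the knockout, where knockout 3 had 0.0695 CPM. It was not called in either comparison.

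Asprv1 and Casp14 encode proteases that cut filaggrin, and Spink5 encodes LEKTI, the inhibitor of the kallikrein proteases that shed corneocytes. Spink5 (Entrez 72432) had 54.1, 31.0 and 46.7 CPM in the controls and 52.8, 75.3 and 77.9 in the knockout. Knockout 1 fell inside the control range. The log2 change was 0.64 (SE 0.18, adjusted p = 0.0251), and the call was lost without control 2 (0.46, adjusted p = 0.0774), knockout 2 (0.58, 0.0929) or knockout 3 (0.55, 0.0979), on the 6 libraries alone (0.64, 0.0595), with an Xist covariate (0.83, 0.113) and from knockout 3 on its own (0.84, 0.0754). With DMSO it had 15.97, 19.7 and 14.6 CPM and with WM-3835 13.3, 11.2 and 14.7, a change of -0.35 (SE 0.19) that was not called (adjusted p = 0.231). The knockout effect was 1.00 above the inhibitor effect (SE 0.26, adjusted p = 0.0199). This difference was not called with limma-voom (0.97, adjusted p = 0.0704), with an Xist covariate (1.18, 0.0588) or without knockout 2 (0.94, 0.0548), knockout 3 (0.91, 0.0549), DMSO 2 (0.88, 0.0599) or WM-3835 2 (0.91, 0.0504). Casp14 was at 2.19 ± 1.04 CPM in the controls and 1.09 ± 0.107 in the knockout, and Asprv1 at 35.8 ± 6.55 and 28.4 ± 5.01, neither called.

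The adhesion genes encode proteins that hold corneocytes together: corneodesmosin, and the cadherins desmoglein 1 and desmocollin 1. Dsg1a (Entrez 13510) had 33.5, 42.5 and 49.3 CPM in the controls and 22.1, 23.7 and 31.2 in the knockout. The groups did not overlap, but knockout 3 lay close to control 1. The log2 change was -0.70 (SE 0.16, adjusted p = 0.00655). An Xist covariate gave -0.36 (adjusted p = 0.432), and knockout 3 on its own against the controls gave -0.41 (adjusted p = 0.33). With DMSO it stood at 43.0 ± 4.67 CPM and with WM-3835 at 38.6 ± 5.85 (log2 -0.15, adjusted p = 0.592). Cdsn reached at most 4.26 CPM and Dsc1 at most 0.992 CPM in any library, and they were not called in either comparison.

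Suprabasin and the keratinocyte differentiation-associated protein are secreted by differentiating keratinocytes, and their genes are neighbours on chromosome 7. Sbsn (Entrez 282619, chr7:30732674-30756134) was called higher in both experiments. It had 26.7, 32.1 and 32.1 CPM in the controls and 36.4, 48.4 and 48.1 in the knockout, a change of 0.55 (SE 0.13, adjusted p = 0.00751). It had 21.7, 20.2 and 21.1 CPM with DMSO and 28.0, 28.8 and 31.4 with WM-3835, a change of 0.48 (SE 0.13, adjusted p = 0.0118). No library of a treated group fell within its baseline's range. The call was lost in the knockout on the 6 libraries alone (0.54, adjusted p = 0.0534) and with an Xist covariate (0.69, 0.0527). With the inhibitor it was lost without DMSO 2 (0.46, 0.0526) or WM-3835 3 (0.43, 0.0627). Of its 75-base stretches, 5.86% also occurred in Tmem147os.

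Krtdap (Entrez 64661, chr7:30787905-30791089) did not follow its neighbour. It had 7.67, 8.98 and 7.44 CPM with DMSO and 5.15, 3.42 and 3.68 with WM-3835, without overlap, a fall of 0.97 (SE 0.22, adjusted p = 0.00463) that was called in every alternative. In the knockout it had 14.2, 16.9 and 12.1 CPM against 16.5, 10.7 and 11.6 in the controls, a change of 0.15 (SE 0.22, adjusted p = 0.695). The effects differed by 1.12 (SE 0.31, adjusted p = 0.0256). That difference was not called with limma-voom (1.09, adjusted p = 0.0535), with an Xist covariate (0.82, 0.284) or without knockout 2 (1.01, 0.0694), DMSO 2 (1.05, 0.0687), WM-3835 2 (1.02, 0.069) or WM-3835 3 (1.07, 0.0666). Spink5 and Krtdap were the 2 of 34 genes with a higher effect in the knockout, where 4.41% of all genes had one.

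Counted together, the inhibitor raised Sprr2a1, Sprr2a2, Sprr2a3 and Sbsn and lowered Krtdap and Crnn. That is 6 of 34 called, where 18.7% of all genes were, with 4 higher, where 9.34% of all genes were, and 2 lower, where 9.35% were, shares near those of all genes. All 3 WM-3835 libraries lay above all DMSO libraries for 7 genes (23.1% of all genes) and below them for 7 (23% of all genes). As 1 feature the Sprr2a copies leave 2 higher. Among the TEC markers Aire, Ly75, Psmb11, Foxn1 and Krt5 fell with WM-3835 and Epcam rose. Of the 8 fibroblast markers Pdgfra rose and 3 fell. The part of these markers in the changes was not tested. Across the main comparisons, 12 genes were called in at least 1 and 22 in none. Sprr2a2, Sprr2a3 and Sbsn were called in both, and for Sbsn alone the directions were the same.

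**Figure D3:**
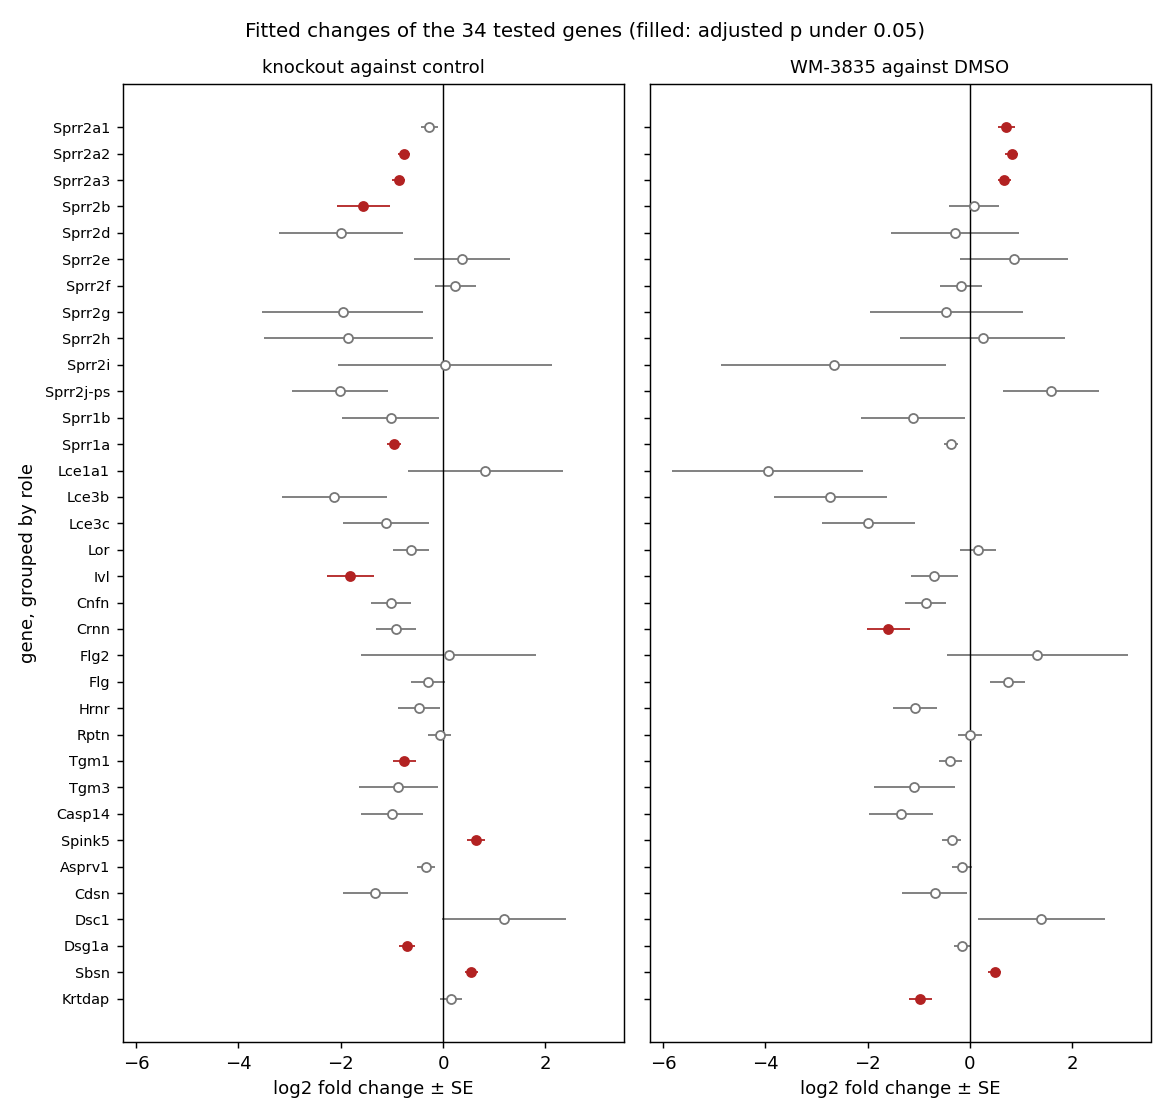
Points give the fitted log2 fold change of each of the 34 tested genes and bars its SE, for knockout against control (left) and WM-3835 against DMSO (right) on the same scale. Filled points are called at an adjusted p under 0.05: 9 on the left and 6 on the right, with the Sprr2a copies left of 0 in the knockout and right of 0 with the inhibitor.

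The median change of the 34 tested genes was -0.76 in the knockout and -0.32 with WM-3835, against -0.01 over all 18670 genes in both. Low genes weigh on these medians. In the quartile of lowest expression, which held 15 of the 34, the median over all genes was itself -0.43 in the knockout and -0.41 with WM-3835. Without knockout 2 the knockout median was -0.61, with an Xist covariate -0.42.

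More of these genes were called between the 2 baselines than in either main comparison. In DMSO cultures of wild-type lobes, 15 of the 34 genes were lower than in tamoxifen-treated controls, where 13.3% of all genes were lower, and none was higher, where 11.4% were (24.6% in either direction). Calls upward were rarer among low genes. In the quartile of lowest expression, with 15 of the 34, 4.05% of genes were lower and 1.09% higher. In the next quartile, with 12 of the 34, 19.2% were lower and 6.79% higher. All DMSO libraries lay below all controls for 21 genes, as for 19.4% of all genes, and above them for 0, as for 19.6%. DESeq2 and limma-voom also called 0 higher, and 0 had an unadjusted p under 0.05 upward. Sign alone put 31 of 34 lower with DMSO, and the median change was -1.10, against 0.00 over all genes and -0.39 in the lowest quartile. Treatment, genotype label and Xist all differ between these groups, and the fibroblast, endothelial and thymocyte marker sums were higher in every control than in any DMSO library. Ptprc, the leukocyte gene among the thymocyte markers, stood at 8.68 ± 4.33 CPM in the controls and 1.27 ± 0.764 with DMSO (-2.81, adjusted p = 0.000239). Aire, Ly75, Foxn1 and Cd74 were higher and Krt14, Krt5 and Epcam lower with DMSO. Their parts cannot be told apart.

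Among the 15 called genes, Asprv1 had the smallest adjusted p, followed by Rptn. Asprv1, whose product cuts filaggrin (chr6:86628174-86629710), had 35.6, 42.5 and 29.4 CPM in the controls and 6.59, 6.58 and 7.44 with DMSO, a change of -2.38 (SE 0.19, adjusted p = 4.07e-08). Rptn had 29.2, 16.5 and 19.1 CPM against 3.35, 6.06 and 3.93 (-2.30, SE 0.24, adjusted p = 1.13e-06). Flg had 13.1, 18.7 and 5.65 CPM against 2.35, 2.54 and 2.79 (-2.29, SE 0.34, adjusted p = 7.05e-05). In none of these did a DMSO library reach the lowest control. Spink5 was lower by the same test, at -1.40 (SE 0.19, adjusted p = 2.18e-05). None of Asprv1, Rptn and Flg was called in the knockout or with the inhibitor.

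Also called lower with DMSO were Ivl (-1.94), Cnfn (-1.42), Lor (-1.35), Crnn (-1.11), Tgm1 (-0.89), Krtdap (-0.69), Sbsn (-0.53), Sprr2a2 (-0.42), Sprr2a3 (-0.39), Sprr2e (-3.61) and Sprr2j-ps (-2.76). Sprr1a, at 114 ± 19.4 CPM with DMSO and 145 ± 28.1 in the controls, was not called (-0.35, adjusted p = 0.0742), though 6 alternatives called it, with adjusted p of 0.0132 (without control 3) to 0.049 (upper-quartile scaling). Dsg1a was not called (0.04, SE 0.16). The call of Sprr2j-ps was lost without any 1 of the 6 libraries (adjusted p of 0.0593 to 0.148), and that of Crnn without any 1 of them but control 1 (0.0532 to 0.177). With an Xist covariate Crnn was at 0.34 (adjusted p = 0.843), 13 of the 15 lost their call and Asprv1 and Rptn kept theirs. Xist itself separates the controls from the DMSO libraries, and the SE of each of these 13 grew in that fit. Some of their changes grew in size and others shrank, so a lost call does not measure the part of Xist. The count of lower members was 7 without DMSO 3, 10 without DMSO 2, and 11 without control 1 or without DMSO 1. Asprv1 and Rptn were called in every alternative.

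**Figure D4:**
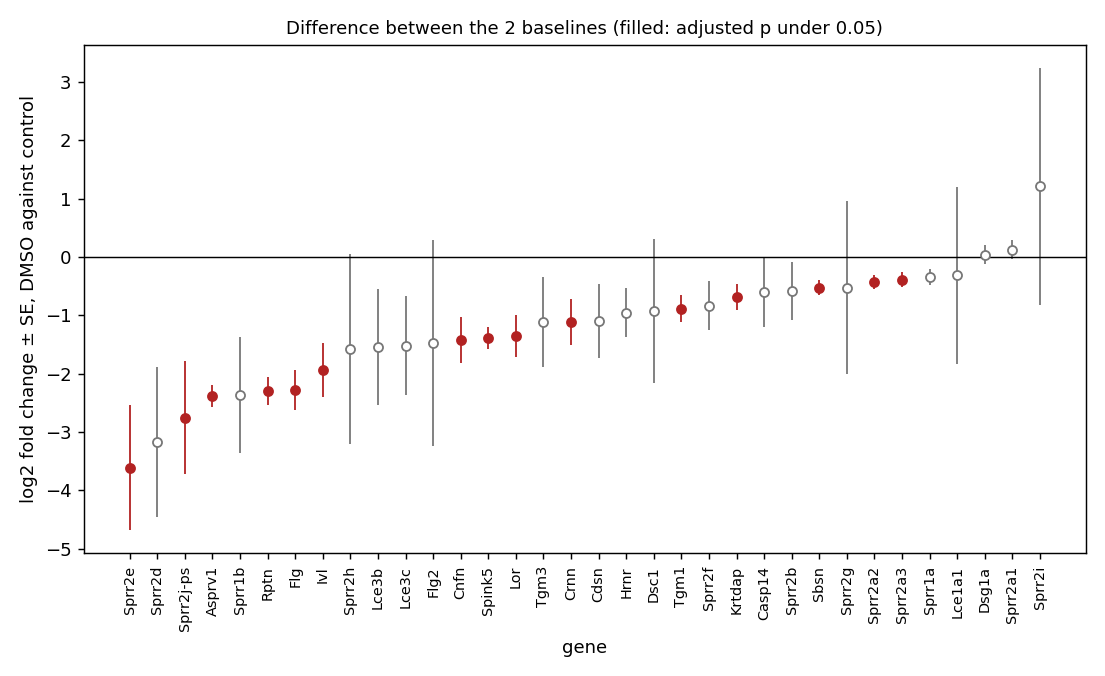
Points give the log2 fold change of DMSO against control for the 34 tested genes, ordered by size, and bars its SE. Filled points are called: all 15 lie under 0, with Asprv1, Rptn and Flg between -2.4 and -2.2.

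Other genes of the keratinocyte programme were read from lists drawn up beside this set. Of 21 transcription factors and other regulators of epidermal differentiation, 3 rose and 2 fell in the knockout, where 6.12% of all genes rose and 8.06% fell. With WM-3835 6 rose and 4 fell, where 9.34% of all genes rose and 9.35% fell. Trp63, the master regulator of stratified epithelia, had 287, 274 and 263 CPM in the controls and 194, 178 and 163 in the knockout (-0.62, SE 0.08, adjusted p = 5.29e-05). With DMSO it had 234, 265 and 232 CPM and with WM-3835 129, 123 and 117 (-0.98, SE 0.08, adjusted p = 1.40e-07). It was lower in every treated library and in every alternative. Klf4, which drives barrier formation, fell in the knockout, from 280, 209 and 292 to 149, 158 and 165 CPM (-0.73, SE 0.12, adjusted p = 0.000565). That call was lost with an Xist covariate (-0.71, 0.0605) and from knockout 3 on its own (-0.64, 0.0814). With WM-3835 the epithelial ETS factors Elf3 (1.05, SE 0.12, adjusted p = 5.16e-06) and Ehf (0.92, SE 0.12, adjusted p = 3.71e-05) rose. Elf3 stood at 168.5 ± 31.7 CPM in the controls, 82.3 ± 9.59 with DMSO and 171 ± 18.2 with WM-3835. For Ehf these levels were 166 ± 34.6, 52.1 ± 0.577 and 98.55 ± 14.4 CPM.

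Of 16 other late epidermal genes, 3 fell in the knockout (8.06% of all genes fell) and 4 fell and 1 rose with the inhibitor (9.35% and 9.34% of all genes). The water and glycerol channel gene Aqp3 fell in both, from 121, 86.5 and 77.0 to 22.4, 32.2 and 28.3 CPM in the knockout (-1.78, SE 0.16, adjusted p = 1.37e-06) and from 55.4, 56.8 and 57.9 to 33.4, 24.7 and 31.1 CPM with WM-3835 (-0.93, SE 0.16, adjusted p = 0.000331). Calml3, a calmodulin-like protein of differentiating epithelium, fell by 1.68 in the knockout (adjusted p = 0.00278) and by 1.71 with WM-3835 (adjusted p = 0.00189). Gjb2, the gap junction protein connexin 26, fell by 0.68 (adjusted p = 0.000765) and by 0.51 (adjusted p = 0.0043). The knockout calls of Calml3 and Gjb2 were lost with an Xist covariate (adjusted p = 0.124 and 0.126) and from knockout 3 on its own (0.115 and 0.0915).

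Of 12 desmosome and plakin genes, 6 rose and 2 fell with WM-3835 (9.34% and 9.35% of all genes, 17.3% and 13.3% in the quartile of highest expression), and 1 rose in the knockout (6.12% of all genes). Evpl, whose product envoplakin starts envelope assembly, had 19.7, 23.4 and 18.9 CPM with DMSO and 47.2, 36.2 and 40.9 with WM-3835 (1.01, SE 0.16, adjusted p = 0.000214). The controls had 53.6, 49.1 and 48.5 CPM of Evpl. Dsg3, the basal desmoglein, rose by 1.10 (SE 0.22, adjusted p = 0.00168) and Pkp3 by 0.47 (SE 0.09, adjusted p = 0.00147). Dsg3 stood at 23.55 ± 9.16 CPM in the controls, 6.70 ± 0.781 with DMSO and 14.4 ± 3.08 with WM-3835. Of 12 desquamation proteases and inhibitors, 3 rose and 1 fell with WM-3835 (9.34% and 9.35% of all genes) and 1 fell in the knockout (8.06% of all genes). The membrane proteases St14 (0.79, SE 0.07, adjusted p = 7.56e-07) and Tmprss13 (1.19, SE 0.14, adjusted p = 8.74e-06) rose with the inhibitor. The kallikrein gene Klk7, whose product LEKTI inhibits, fell in both. It went from 4.83, 5.43 and 6.04 to 1.30, 2.03 and 0.521 CPM in the knockout (-2.08, SE 0.53, adjusted p = 0.0139) and from 1.44, 2.66 and 2.504 to 0.157, 0.704 and 0.416 CPM with WM-3835 (-2.37, SE 0.56, adjusted p = 0.00545). The knockout call of Klk7 was lost with an Xist covariate (-3.26, 0.0825) and without knockout 3 (-1.70, 0.0559).

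Of 13 keratins of the upper epidermis and of activated keratinocytes, 2 rose and 1 fell with WM-3835 (9.34% and 9.35% of all genes) and 1 fell in the knockout (8.06% of all genes). Krt6a, a keratin of activated epithelium, had 100, 88.9 and 88.4 CPM with DMSO and 248, 176 and 236 with WM-3835 (1.25, SE 0.15, adjusted p = 7.47e-06), and Krt6b rose by 0.75 (SE 0.16, adjusted p = 0.00205). The controls had 246.5, 165 and 163.5 CPM of Krt6a. Krt17 fell with the inhibitor, from 1092, 1170 and 906 to 840, 818 and 792 CPM (-0.37, SE 0.096, adjusted p = 0.00982). That call was lost without DMSO 2 (-0.29, 0.0668). Of 15 genes that make the lipids of the barrier, 0 were called in the knockout by edgeR, DESeq2 or limma-voom (unadjusted p under 0.05 for 2 upward and 3 downward), while 4 rose and 1 fell with the inhibitor (9.34% and 9.35% of all genes). Elovl4, which makes the very long fatty acids of acylceramides, had 10.7, 8.83 and 9.74 CPM with DMSO and 2.51, 4.36 and 3.47 with WM-3835 (-1.51, SE 0.25, adjusted p = 0.000286). Slc27a4, a fatty acid transporter, rose by 0.60 (SE 0.12, adjusted p = 0.00108). With DMSO against control, where 13.3% of all genes were lower and 11.4% higher, the lower genes were 9 of 21 regulators, 9 of 16 late epidermal genes, 8 of 12 desmosome and plakin genes, 4 of 12 proteases and inhibitors, 7 of 13 keratins and 4 of 15 lipid genes. Of the regulators 1 was higher, and so was 1 of the desmosome and plakin genes.

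The S100 genes and other neighbours of the precursors in the complex changed in both directions. Of 21 such genes 18 were tested: 5 rose and 2 fell in the knockout (6.12% and 8.06% of all genes) and 4 rose and 3 fell with WM-3835 (9.34% and 9.35% of all genes). In each comparison 11 were not called. S100a4 rose in both, from 9.70, 12.8 and 9.91 to 24.5, 23.6 and 28.3 CPM in the knockout (1.23, SE 0.17, adjusted p = 0.000107) and from 6.94, 8.83 and 8.57 to 21.8, 30.4 and 28.0 CPM with WM-3835 (1.72, SE 0.17, adjusted p = 1.29e-06). S100a6 rose by 0.77 (SE 0.15, adjusted p = 0.0026) and by 1.99 (SE 0.16, adjusted p = 1.28e-07). All 4 of these calls held in every alternative. S100a3 fell with WM-3835, from 25.0, 34.8 and 28.3 to 5.77, 8.89 and 8.15 CPM (-1.95, SE 0.18, adjusted p = 5.34e-07). Its controls stood at 15.5 ± 1.23 CPM, and the call held in every alternative. S100a8, a calgranulin of activated epithelium and myeloid cells, fell by 1.62 in the knockout (SE 0.33, adjusted p = 0.00321) and by 2.14 with WM-3835 (SE 0.34, adjusted p = 0.000166). In the knockout that call was lost with an Xist covariate (-1.56, 0.138) and from knockout 3 on its own (-1.53, 0.107).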

How the data were processed

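The deposited values are raw counts per gene in 12 libraries, with an Entrez ID, a symbol and a gene length, per the file headers. Per the submitters' processing notes, the authors used featureCounts and the build mm10. Aligner, annotation, strand setting and the treatment of reads that match several genes: not given in the sources used here. The library kit (TruSeq RNA v2, read as 75-base pairs, per the labels' protocols) does not mark strand. Of 27179 genes, 1312 without a symbol (0.657% to 0.743% of counts) were left out. No column belonged to another sample.

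Libraries were scaled by TMM, low genes were removed by filterByExpr, and edgeR 4.0.16 (R 4.3.3) fitted its quasi-likelihood model, a mean per group, to the 12 libraries together, with Benjamini-Hochberg adjustment over 18670 genes, two-sided, and a call at adjusted p under 0.05. CPM are TMM-scaled, and SDs are over 3 libraries. The SE of an edgeR change was worked back from its test, as the size of the log2 change divided by the square root of the F statistic. Detection was compared at 26473241 counts per library by the expected number of genes with at least 1 count. The scripts were tested on simulated data. Library sizes of 26656847 to 52368012 counts make genes near 1 CPM imprecise.

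The alternatives were scaling by upper quartile or RLE, limma-voom (limma 3.58.1) with and without quality weights per group, DESeq2 1.42.0, no filter, CPM over 1 in 3 libraries, 6 libraries alone, a replicate block, Xist as a covariate, knockout 3 as the only knockout library, and leaving out each library. Treating the Sprr2a copies as 1 feature was added after seeing the data. Genes named in full are those called in a main comparison; from other lists, up to 4 called genes with the smallest adjusted p per comparison could be named. The members and all lists were chosen with earlier results of these data known. Promoter sequences come from RefSeq (GRCm38.p6), which had windows for 48 of 54 genes, and shared stretches from GENCODE M21 transcripts.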

Additional observations from a re-analysis of the deposited data

Results flagged for a closer look

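Tests of the difference itself set 5 of the 34 genes apart between the experiments, by the knockout effect minus the inhibitor effect on the log2 scale. It was -0.98 for Sprr2a1, -1.58 for Sprr2a2 and -1.545 for Sprr2a3, which share much of their sequence. Sprr2a2 and Sprr2a3 fell in the knockout, Sprr2a1 was not called there, and all 3 rose with WM-3835. It was 1.00 for Spink5 and 1.12 for Krtdap. Only the differences of Sprr2a2 and Sprr2a3 were called in every alternative fit. The groups hold 3 libraries each, so no library was tested as an outlier.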

How the results depend on the processing

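Of the calls, those of Sprr1a, Sprr2a2 and Sprr2a3 in the knockout, of Krtdap and the 3 Sprr2a copies with WM-3835, of Sprr2a2 and Sprr2a3 in the difference and of Asprv1 and Rptn between the baselines held in every alternative. Over single genes and settings, 808 results kept direction and side of the threshold, 101 lost the call, 20 gained one and 11 changed sign. The cause of these changes was not tested.

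The members called higher in the knockout (2) were 0 from their 6 libraries, 0 with an Xist covariate, 1 from knockout 3 on its own and 1 to 3 with a library left out. Those called lower (7) were 3 with an Xist covariate, 4 from knockout 3 on its own and 4 to 6 with a library left out, the 4 without control 1. With WM-3835, higher calls (4) were 2 with the Sprr2a copies as 1 feature and 3 to 4 with a library left out, and lower calls (2) were 4 with DESeq2, 6 with quality weights, 6 on the 6 libraries alone and 2 to 3 with a library left out. For the difference, higher calls (2) were 0 with limma-voom, 0 with an Xist covariate and 0 to 3 with a library left out (0 without knockout 2, DMSO 2 or WM-3835 2), and lower calls (3) were 5 with DESeq2, 1 with the copies as 1 feature and 3 to 5 with a library left out. Between baselines, higher calls (0) were 0 to 1, and lower calls (15) were 3 with an Xist covariate and 7 to 14 with a library left out.

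The labels number replicates alike in each group, but same-numbered libraries did not deviate together (correlations of -0.0187 to 0.058), so the number was not taken as a pairing. With a replicate block, the counts were 2 higher and 6 lower in the knockout, 4 and 3 with WM-3835, 2 and 5 for the difference and 0 and 14 between baselines.

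Signs changed as follows. The median of the difference ran from -0.39 to 0.0100 with a library left out, the latter without knockout 2. Krtdap in the knockout was -0.15 with an Xist covariate and -0.087 from knockout 3 on its own. Sprr2b with WM-3835 was -0.27 with limma-voom, -0.27 with quality weights, and ran from -0.46 (without WM-3835 3) to 0.48 (without WM-3835 2) with a library left out, -0.064 without DMSO 2. The difference for Sbsn ran from -0.0019 (without control 1) to 0.21 (without knockout 1). Between baselines, Dsg1a ran from -0.083 (without control 1) to 0.19 (without control 3), -0.03 without DMSO 2, Sprr2a1 -0.10 and Crnn 0.34 with an Xist covariate.

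Over all genes, knockout calls (2646) were 1157 and WM-3835 calls (3490) were 6070 from the 6 libraries alone, and 1180 and 6589 with quality weights. The knockout gave 487 with an Xist covariate and 704 from knockout 3 on its own. With an Xist covariate the difference gave 708 (1887) and the baselines 804 (4600). Upper-quartile scaling moved the WM-3835 split from 1744 higher and 1746 lower to 1382 and 2078. Members detected per DMSO library averaged 47.0 at the deposited depth.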
